A study of Mus musculus with 9 samples.

Results

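Krüppel-like factors are transcription factors whose zinc fingers bind CACCC and GC-rich DNA. Klf2 and Klf4 are the best known of them in endothelium, where laminar blood flow induces both through a kinase cascade that ends on MEF2 factors, and where they keep vessels quiescent and resistant to clotting. Klf1 is the erythroid member and drives adult globin genes, Klf3 is a repressor that recruits CtBP, and Klf6 is induced in injured vessels. Klf7 is known from neurons and fat, Klf9 is induced by glucocorticoid and thyroid hormones, Klf10 is an early response gene of TGF-beta, and Klf13 is known from activated T cells. Histone acetylation marks active promoters and enhancers, and H3K4me3 marks active promoters.

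These 9 genes were chosen by name, out of 21887 protein-coding genes of the RefSeq table of GRCm38.p6, with earlier results of these data known. Each was read over its gene span plus 2 kb on either side. The chromatin was that of lung endothelial cells isolated from wild-type (WT) mice, with no strain or age given in the labels. It was profiled by ACT-seq, in which an antibody guides a Tn5 transposase to a histone mark and the enzyme tags the DNA nearby. There was 1 library for each of 7 acetylations (H3K14ac, H4K8ac, H3K18ac, H3K27ac, H3K23ac, H2AK5ac and H3K9ac), 1 for H3K4me3 and 1 for IgG, the control antibody. With 1 library per antibody no value has a replicate error and no test could be made, so the values below describe these libraries.

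The deposited table joins 8 peak lists, of 48943 (H3K9ac) to 578465 peaks (H3K14ac), and each list was densest in reads of the mark after which it is named here. Lists of such unequal length show by their peaks where a mark was called, not how strong it was. Library totals ran from 365999 reads for IgG and 1477463 for H3K4me3 to 10044130 for H3K14ac. As a check of the cell type, 9 of 10 endothelial marker genes had peaks of all 8 lists, among them Cdh5 and Pecam1, while the window of the tenth, Cldn5, had no peak of any list. All 8 lists, which 44.6% of all protein-coding genes had, were present at 2 of 6 markers of lung epithelium, 2 of 6 of leukocytes, 1 of 5 of mesenchyme and 0 of 7 of red cells. Windows differ in length between these markers and long windows collect more lists, so these counts are not matched for length. Sftpc, the surfactant gene of alveolar epithelium, was among the 2 epithelial genes, with 1520 bp of H3K4me3 peaks. The part that other cells play in the values of the Klf genes was not tested.

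The promoters of 4 of the genes are shown first, because the peaks lay over them in 4 different ways. Each runs from 250 bases before the RefSeq start site to 50 bases from it on, 5′ to 3′ on the gene's strand, in GRCm38.p6 coordinates. RefSeq sequences were matched for 8 of the 9 genes; Klf10 had no entry. Capitals mark, on either strand, the Krüppel-like element CACCC, the GC box GGGCGG, the GATA factor element GATAA and a MEF2 element, and matches may overlap. Klf2 (chr8:72318812-72319111, plus strand) lay whole under peaks of all 8 lists, Klf4 (chr4:55532426-55532725, minus strand) under 6, Klf7 (chr1:64121340-64121639, minus strand) under 2 and Klf1 (chr8:84901732-84902031, plus strand) under none.
Klf2: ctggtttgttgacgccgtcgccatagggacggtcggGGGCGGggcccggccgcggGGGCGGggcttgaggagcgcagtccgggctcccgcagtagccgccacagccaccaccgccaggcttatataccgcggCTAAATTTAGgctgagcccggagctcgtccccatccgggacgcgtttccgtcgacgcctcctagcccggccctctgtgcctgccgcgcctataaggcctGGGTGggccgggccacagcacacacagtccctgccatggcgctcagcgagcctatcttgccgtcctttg
Klf4: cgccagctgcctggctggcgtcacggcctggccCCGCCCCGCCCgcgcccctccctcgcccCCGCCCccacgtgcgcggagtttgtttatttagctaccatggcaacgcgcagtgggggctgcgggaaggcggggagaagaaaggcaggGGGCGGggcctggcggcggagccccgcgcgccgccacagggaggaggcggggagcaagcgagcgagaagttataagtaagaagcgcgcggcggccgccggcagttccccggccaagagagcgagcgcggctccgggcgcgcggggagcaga
Klf7: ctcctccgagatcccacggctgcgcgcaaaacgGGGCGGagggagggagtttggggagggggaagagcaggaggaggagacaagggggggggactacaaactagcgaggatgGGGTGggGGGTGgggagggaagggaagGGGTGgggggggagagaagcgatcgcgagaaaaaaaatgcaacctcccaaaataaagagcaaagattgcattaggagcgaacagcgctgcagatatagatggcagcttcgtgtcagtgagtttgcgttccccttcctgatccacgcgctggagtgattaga
Klf1: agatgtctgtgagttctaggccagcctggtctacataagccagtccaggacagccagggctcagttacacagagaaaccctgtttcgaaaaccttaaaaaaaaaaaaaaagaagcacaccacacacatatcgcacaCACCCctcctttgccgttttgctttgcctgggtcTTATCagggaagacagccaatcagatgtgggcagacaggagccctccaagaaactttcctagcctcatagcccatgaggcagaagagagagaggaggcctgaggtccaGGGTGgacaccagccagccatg

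Of the 8 promoters, that of Klf2 alone held a MEF2 element, 118 bases before the start, a motif found in 3.19% of 32851 RefSeq mouse promoters of this length. It also held GGGCGG at 214 and 195 bases before the start and CACCC at 19 bases before it. Klf4 had 4 GC boxes and no Krüppel-like element. The GC box occurred in 6 of the 8 promoters, against 35.7% of all promoters, and the Krüppel-like element, CACCC, in 6 of the 8, against 57.5%. Klf1 was the only one with GATAA, 80 bases before the start (25.4% of all promoters), and also had CCAAT at 64 bases before it (37.4% of all promoters) and CACCC at 114 bases before it. In the number of CpG dinucleotides Klf1 also stood apart, with 3, against 16 to 40 in the other 7 promoters and a median of 7.00 over all promoters. A match of letters is a description and shows no binding.

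Peaks of all 8 lists lay in the windows of 8 of the 9 genes, against 44.6% of all protein-coding genes. The exception was Klf1, with peaks of 5 lists and none of H3K14ac, H2AK5ac or H3K9ac. Long windows collect more lists: among genes with a window of 0.5 to 2 times that of Klf2, 22.4% had all 8 lists, and among genes with a window like that of Klf7, 67.8% did. All 8 lists in the short windows of Klf2 and Klf4 (27.4% of genes with a window of that size) are thus less common than all 8 in the long windows of Klf7 or Klf13 (60.3%). Among genes with a window like that of Klf1, 23.9% had all 8. With peaks wider than the commonest width of their list alone, 8 genes had all 8 lists, and Klf1 had 4.

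List by list, H4K8ac peaks lay at 9 of 9 Klf genes, against 75.4% of all genes, H3K18ac at 9 of 9 (77.3%), H3K27ac at 9 of 9 (71.6%), H3K23ac at 9 of 9 (69.7%) and H3K4me3 at 9 of 9 (69.6%). H3K14ac peaks lay at 8 of 9, against 89.8%, H2AK5ac at 8 of 9 (55.2%) and H3K9ac at 8 of 9 (59.2%). H3K14ac was thus close to its background.

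Over the 9 genes and 8 lists there were 597 peaks, from 10 at Klf1 and 14 at Klf2 to 147 at Klf13 and 151 at Klf7. Per 10 kb of window the order was different, with Klf6 highest at 46.5 peaks, Klf10 at 32.5, Klf4 at 31.1, Klf13 at 26.0, Klf3 at 25.8 and Klf2 at 21.2. Klf9 had 18.4, Klf7 15.6 and Klf1 13.7 peaks per 10 kb. Counting only peaks wider than the commonest width of their list left 370 of the 597.

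The share of the window under peaks was above the median of all genes at all 9 genes for H4K8ac, H3K18ac, H3K27ac, H3K23ac and H3K4me3. For H3K14ac, H2AK5ac and H3K9ac it was above at 8 of 9, all but Klf1. By definition about 50% of genes lie above each median. The median share over the 9 genes was 12.2% for H3K9ac, against 0.715% over all genes, and 4.60% for H2AK5ac, against 0.245%. It was 12.3% against 1.41% for H3K23ac, 10.9% against 1.73% for H3K4me3, 8.57% against 1.86% for H3K27ac and 12.9% against 3.87% for H3K14ac. H4K8ac had 11.3% against 2.15% and H3K18ac 9.49% against 2.02%. H3K14ac, the longest list, had the highest median on both sides.

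**Figure D1:**
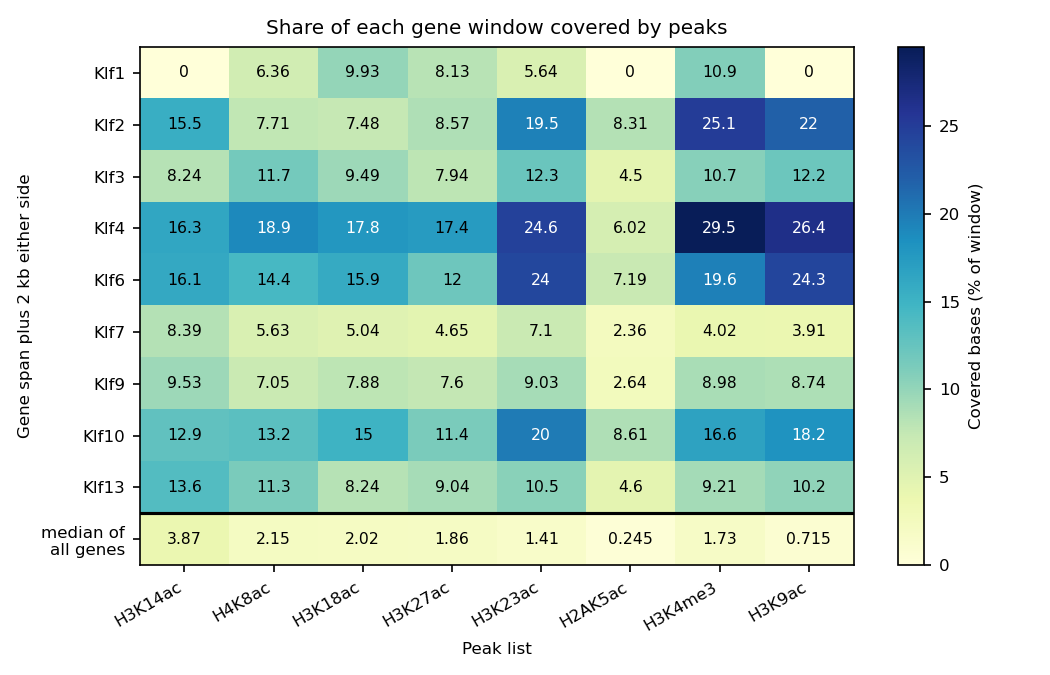
Percent of each gene window (gene span plus 2 kb either side) covered by the peaks of each list, as colour and number, for the 9 Klf genes (rows) and 8 peak lists (columns), with the median of all 21887 protein-coding genes in the bottom row. Klf4 has the darkest cell of the map, 29.5% in the H3K4me3 column, and Klf1 is at 0 in 3 columns.

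Klf2 (gene ID 16598, chromosome 8, 72319062 to 72321654, plus strand), the flow-induced factor, carried its peaks in 1 compact block over the start. A single region of merged peaks ran from 416 bp before the start to 887 bp after it and held all 8 lists. H3K27ac covered 361 bp before the start and up to 203 bp after it, H4K8ac 399 and 108 bp, and H3K18ac 357 and 135 bp. H3K4me3 began 299 bp before the start and ran to 868 bp after it, and H3K9ac ran to 885 bp. A second region inside the gene, from 1076 to 1560 bp after the start, held H3K23ac, H3K4me3 and H3K9ac alone. In H2AK5ac, 0.553% of all genes had as high a covered share as the 8.31% of Klf2, in H3K9ac 0.896% (22.0%) and in H3K4me3 1.11% (25.1%). As bases rather than a share, the 1653 bp of H3K4me3 at Klf2 were reached by 17.4% of genes.

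Klf4 (gene ID 16600, chromosome 4, 55527137 to 55532475, minus strand), the partner of Klf2 in the flow response, had 2 regions of all 8 lists. The first spanned the start, from 1157 bp before it to 327 bp after it, and the second lay inside the gene, from 557 to 2355 bp after the start. A single H3K4me3 peak of 1799 bp made up the whole length of the second region. H3K27ac was widest over the start, in 1 peak of 1289 bp that began 1020 bp before it. At this gene 29.5% of the window lay under H3K4me3 peaks, 26.4% under H3K9ac, 24.6% under H3K23ac and 17.4% under H3K27ac. Between 0.452% and 0.854% of all genes had as high a share in each list but H2AK5ac, where 1.58% did.

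**Figure D2:**
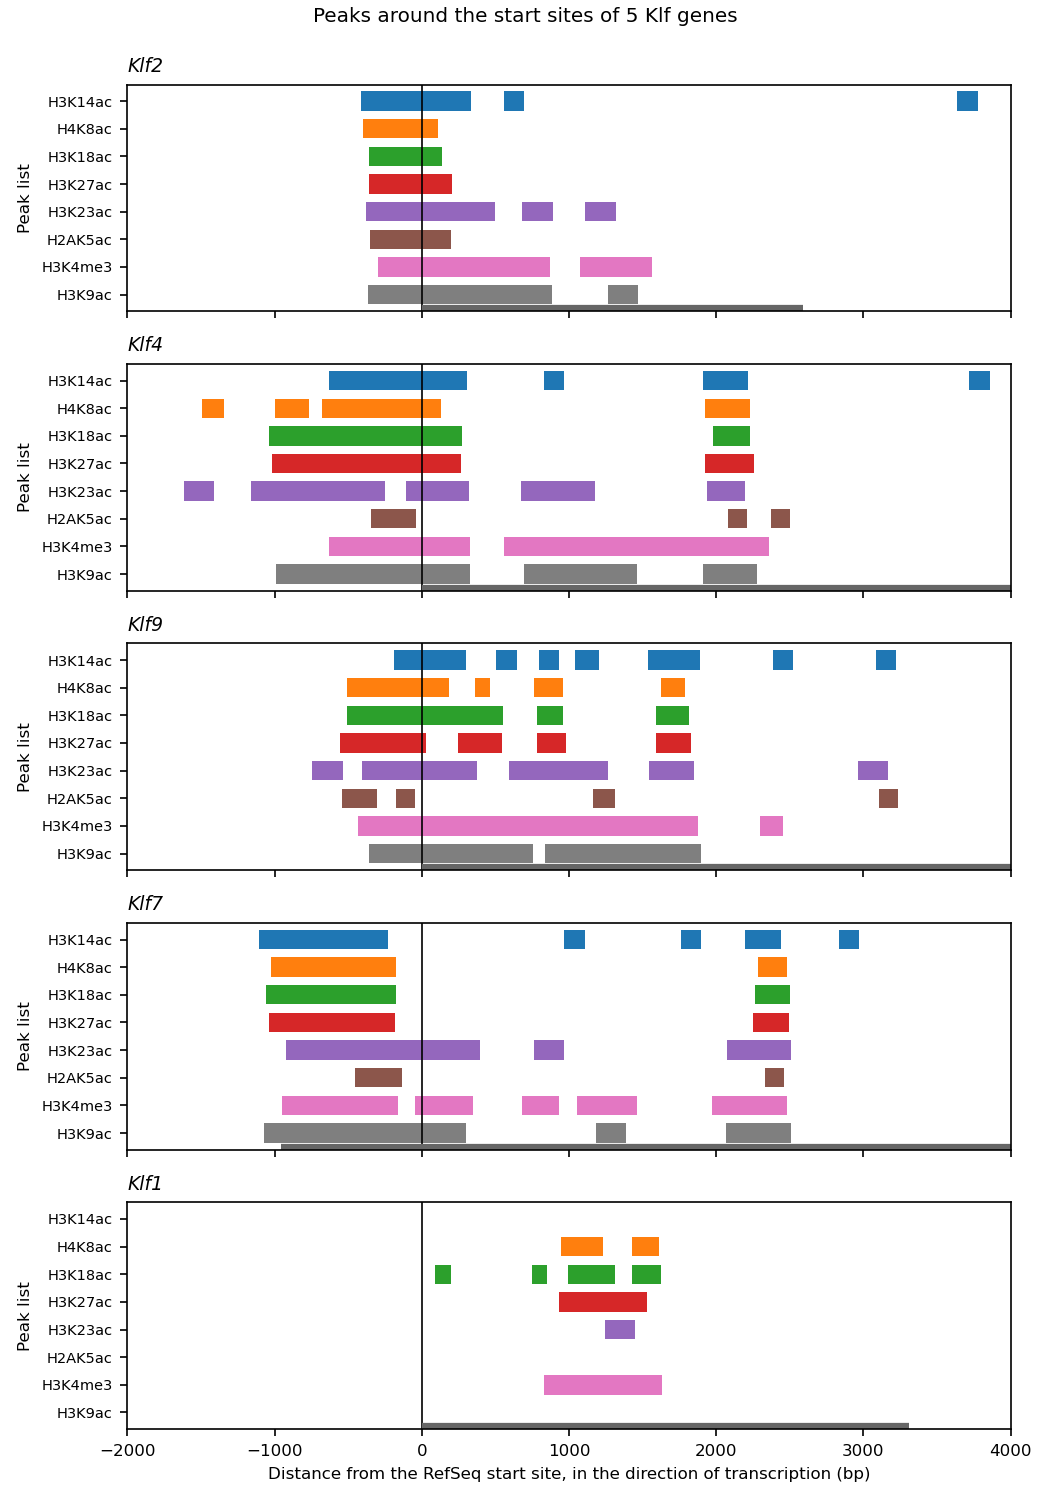
Peaks of the 8 lists (rows of coloured bars) around the RefSeq start sites (vertical line at 0) of Klf2, Klf4, Klf9, Klf7 and Klf1, with distance in bp along the direction of transcription and the gene span as a grey bar. All 8 lists cross the start of Klf2, H2AK5ac stops 42 bp before that of Klf4, the H3K27ac peak of Klf7 ends 183 bp before its start, and no peak crosses the start of Klf1.

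At Klf1 (gene ID 16596, chromosome 8, 84901982 to 84905291, plus strand), the erythroid factor, the start was free of peaks of every list. Within 500 bp of the start lay 1 H3K18ac peak, 92 bp away. Of the other 9 peaks, 8 formed 1 region inside the gene, from 748 to 1628 bp after the start, with 5 lists, and the ninth, of H3K23ac, lay past the end of the gene, 4728 to 4933 bp from the start. The region of 5 lists held 800 bp of H3K4me3, 594 bp of H3K27ac, and H4K8ac, H3K18ac and H3K23ac peaks. An H3K4me3 peak in the window but not over the start base was found at 19.5% of the 17492 genes with a start site. The lncRNA Gm39213 also lies in this window. Among the red cell genes listed for comparison, Gata1, Hbb-bt and Hba-a1 each had 1 list, the fewest, with a single H3K14ac peak. Tal1, which endothelial cells also use, had all 8.

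Klf3 (gene ID 16599, chromosome 5, 64803521 to 64832901, plus strand), the CtBP-binding repressor, had 86 peaks in 28 merged regions, 3 of which held all 8 lists. One spanned the start, from 728 bp before it to 1049 bp after it, and the others lay 2377 to 3015 bp and 8619 to 9720 bp inside the gene. In the first and the last of these regions no base lay under all 8 lists. The start base was under all lists but H2AK5ac, whose nearest peak lay 579 bp away. The window also takes in part of Gm38457, whose peaks cannot be told apart from those of Klf3.

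Klf6 (gene ID 23849, chromosome 13, 5861489 to 5870393, plus strand), the injury-induced factor, was the gene with the densest peaks. A merged region of all 8 lists spanned the start, from 511 bp before it to 391 bp after it, although its H2AK5ac peak ended 86 bp before the start. Further regions of all 8 lists lay at 2690 to 3203 bp and 4412 to 5102 bp inside the gene. Its covered share was 24.3% for H3K9ac, which 0.585% of all genes matched or exceeded, and 24.0% for H3K23ac, which 0.626% did. Beyond the end of the gene, at 9844 to 10219 bp from the start, lay a region of 7 lists without H3K4me3.

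Klf7 (gene ID 93691, chromosome 1, 64029448 to 64122345, minus strand) had the longest window and, in 7 of the 8 lists, the lowest covered share of the 8 genes with all lists, from 2.36% for H2AK5ac to 7.10% for H3K23ac. In H3K14ac it had 8.39%, and Klf3 was lowest with 8.24%. At its RefSeq start, peaks of H3K14ac, H4K8ac, H3K18ac and H3K27ac lay 173 to 231 bp upstream and did not reach the start base. The nearest H2AK5ac peak ended 136 bp upstream and did not reach it either. H3K23ac, H3K4me3 and H3K9ac peaks did. The RefSeq gene span reaches 956 bp further upstream than this start. The upstream end of the span lies inside the peaks of H3K14ac, H4K8ac, H3K18ac and H3K27ac. Besides the region over the start, 3 regions inside the gene held all 8 lists, at 1973 to 2509 bp, 32469 to 33352 bp and 42149 to 43187 bp after the start. The widest H3K4me3 peak of Klf7, 796 bp, lay in the most distant of them.

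Klf9 (gene ID 16601, chromosome 19, 23141226 to 23168129, plus strand), the glucocorticoid-induced member, had 1 broad region of all 8 lists, from 744 bp before the start to 1894 bp after it. Of its 57 peaks, 26 lay in this region. A single H3K4me3 peak of 2304 bp ran from 431 bp before the start to 1872 bp after it, and 4.20% of all genes had as many H3K4me3 bases as the 2775 bp of the Klf9 window. Past the end of the gene, 28072 to 28510 bp from the start, lay a region of 7 lists without H3K4me3.

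Klf10 (gene ID 21847, chromosome 15, 38291464 to 38300711), the early response gene of TGF-beta, has no start site in the sequence table used here, so positions are given as coordinates. All 8 lists were present in 2 merged regions, 38298958 to 38300352 and 38300511 to 38301592, without all sharing the same bases in the first. The first held an H3K4me3 peak of 1325 bp, and the second the widest H3K27ac peak of the gene, 548 bp. A further region, 38302167 to 38302697, held 7 lists and no H3K4me3. In H2AK5ac, 0.484% of all genes had as high a share as the 8.61% of Klf10, the highest of the 9 genes.

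Klf13 (gene ID 50794, chromosome 7, 63886351 to 63938915, minus strand), the T cell factor, had 5 regions of all 8 lists, the most of the 9 genes. The region over the start was the widest of all, 2783 bp, from 1088 bp before it to 1694 bp after it, with an H3K4me3 peak of 2451 bp. The other 4 lay 12895 to 13859 bp, 33288 to 33779 bp, 41332 to 42499 bp and 50886 to 52184 bp after the start, the last at the far end of the gene. H3K4me3 bases in the window, 5208 bp, were reached by 0.621% of all genes, and H3K9ac bases, 5770 bp, by 0.672%. The window also takes in part of E030018B13Rik.

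In all, merging overlapping peaks left 200 regions at the 9 genes. Of these, 116 held 1 list, 27 held 2 and 21 held all 8, while 3 to 7 lists each made up 5 to 10 regions. Regions of all 8 lists were 492 to 2783 bp wide, and 7 covered a start base, 12 lay elsewhere and 2 were those of Klf10. Such a region can join peaks in a chain, so its lists need not all share a base, as at Klf3 and Klf10. Of the 8 regions with 7 lists, 5 lacked H3K4me3, and H3K14ac, H3K23ac and H2AK5ac were each lacking in 1. Lone peaks were mostly H3K14ac (42 of its 102 regions), H4K8ac (29 of 92) and H3K23ac (18 of 69). H3K27ac was alone in 2 of its 53 regions and H3K18ac in 4 of 64. Merged regions were not counted over all genes, so these numbers have no background. Whether they differ from those of other genes was not tested. H3K14ac is also the longest list, with 578465 peaks.

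**Figure D3:**
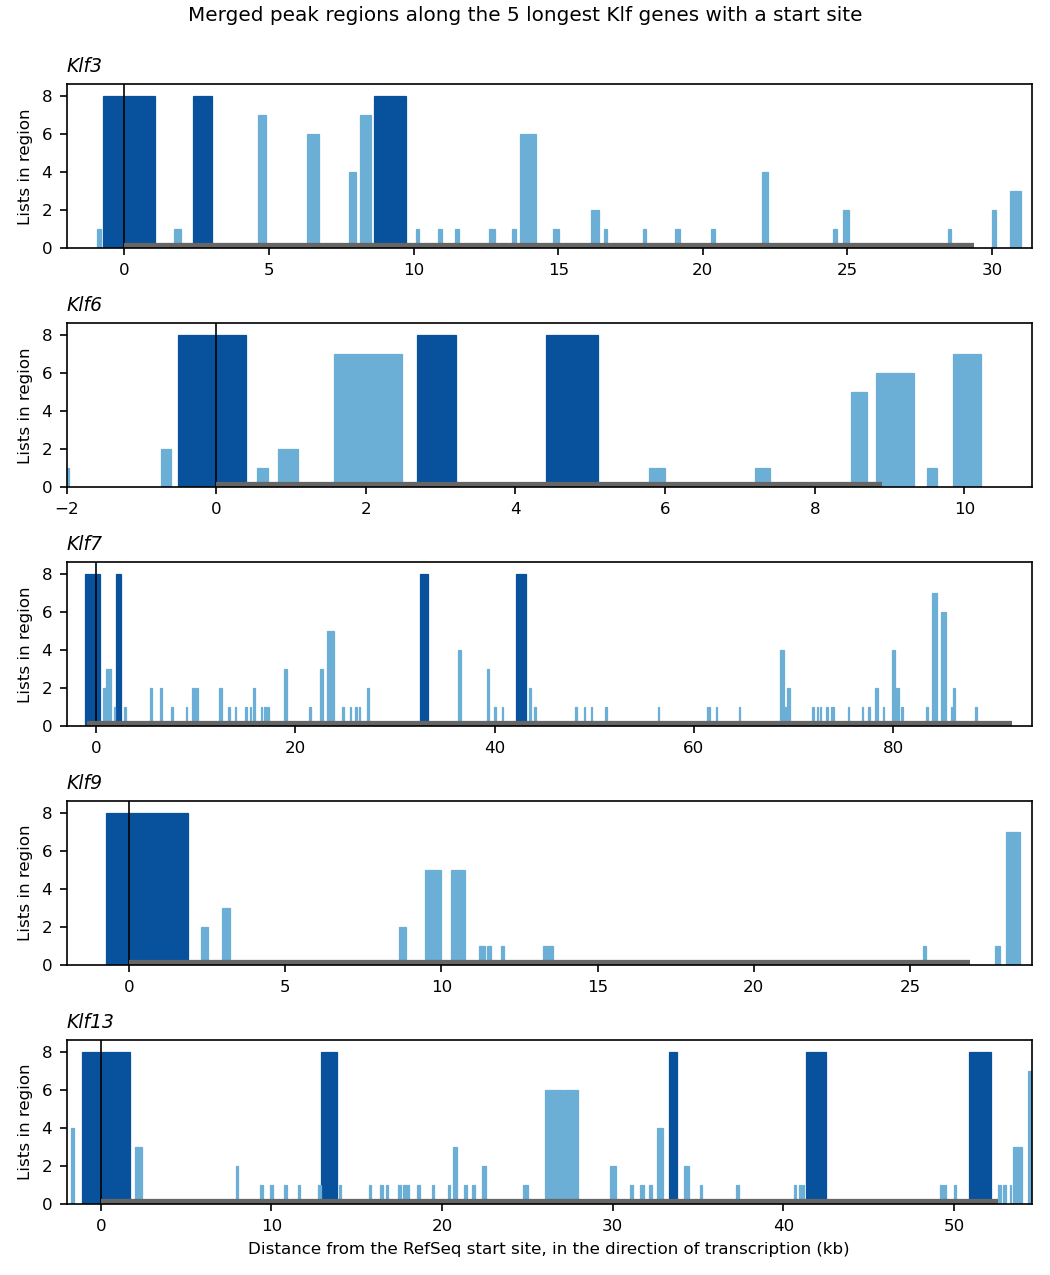
Merged peak regions along Klf3, Klf6, Klf7, Klf9 and Klf13, with distance from the RefSeq start site in kb on the horizontal axis, the gene span as a grey bar and the number of peak lists in each region as its height. Dark bars are the regions of all 8 lists, which lie over the start of each gene and at further places in Klf3, Klf6, Klf7 and Klf13, with 4 in Klf13 up to its far end.

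The marks lay on different sides of the start. In the 2 kb on each side of it, H3K4me3 covered more bases after the start than before it at 8 of 8 genes with a start site, against 75.5% of the genes with any H3K4me3 there. H3K27ac did so at 2 of 8, Klf9 and Klf1, against 58.4%, and H2AK5ac at 0 of 7, against 45.2%. H4K8ac did at 2 of 8 (55.6%), H3K18ac at 2 of 8 (57.1%) and H3K14ac at 2 of 7 (57.5%), while H3K9ac did at 5 of 7 (67.6%) and H3K23ac at 5 of 8 (66.3%). The median share of bases after the start was 74.9% for H3K4me3, against 69.8% over all genes. For H3K27ac it was 27.1%, against 57.0%, and for H2AK5ac 0%, against 50.0%. H4K8ac (23.9%), H3K18ac (27.8%) and H3K14ac (23.9%) resembled H3K27ac, while H3K9ac (55.7%) and H3K23ac (51.1%) lay between. The share of H3K4me3 after the start exceeded that of H3K27ac at 7 of 8 genes, and at Klf1 both were 100%; over all genes with both marks it did at 69.1%. The H3K27ac share after the start was below the median of all genes at 6 of the 8 genes, and the H3K4me3 share was above its own median at 5. The start used for Klf7 lies 956 bp inside its RefSeq gene span, so most of its peak bases counted as before the start lie within that span.

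Gene by gene, Klf6 had 381 bp of H3K4me3 before the start and 1212 bp after it, and 376 and 110 bp of H3K27ac. At Klf13 H3K4me3 had 756 bp before and 1694 bp after the start, and H3K27ac 1269 and 517 bp. Klf4 had 633 and 1769 bp of H3K4me3 and 1020 and 346 bp of H3K27ac. At each of these 3 genes the larger part of the 2 marks was on opposite sides.

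**Figure D4:**
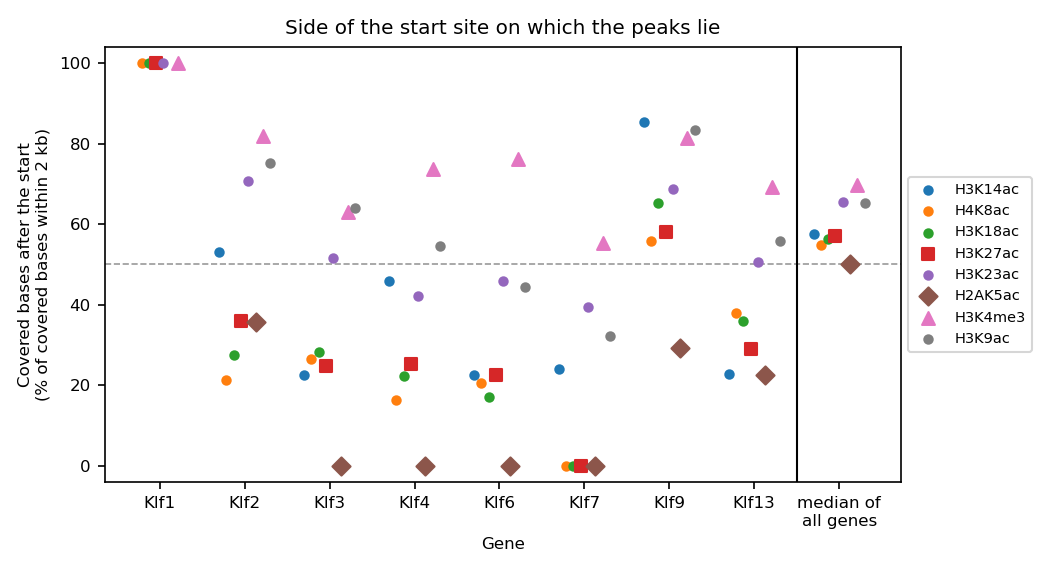
Bases covered in the 2 kb after the RefSeq start site, as percent of the bases covered in the 2 kb on each side together, for each list (colour and marker) at the 8 Klf genes with a start site, with the median of all genes with such bases at the right. H3K4me3 (triangles) lies above 50% at all 8 genes, H2AK5ac (diamonds) below 50% at the 7 where it is present, and H3K27ac (squares) below 50% at all but Klf9 and Klf1.

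The start base itself separated the lists less, and apart from H2AK5ac they differed only at Klf7. It lay under H3K4me3, H3K9ac and H3K23ac peaks at 7 of 8 genes, and under H3K27ac, H3K18ac, H4K8ac and H3K14ac peaks at 6 of 8. Over all genes with a start site, H3K4me3 covered it at 50.0%, H3K27ac at 46.4%, H3K18ac at 45.1%, H4K8ac at 43.9%, H3K14ac at 39.0%, and H3K9ac and H3K23ac at 33.6% each. H2AK5ac covered it at 1 of 8, Klf2, against 9.64% of all genes, although 6 of 8 genes had an H2AK5ac peak within 500 bp, against 26.2%. All 8 lists lay within 500 bp of the start at 6 genes (Klf2, Klf4, Klf6, Klf7, Klf9 and Klf13), against 21.6% of all genes.

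Reads could be placed for few of these peaks, because an identifier of the count table sums the regions of the same number in all lists. Identifiers with every region inside the window of a Klf gene numbered 71, all of them single H3K14ac peaks, at 6 of the 9 genes. Klf1, Klf6 and Klf7 had none. Reads that touch the peak of another identifier were not counted, so places where lists overlap hold few placeable reads: 32 of the 71 had no base of their own. IgG had 3 reads, all at Klf13, and 0 elsewhere, where the floor set for a count of 0 was 3 reads, or 8.20 CPM (counts per 1000000 of the library's table total). The folds given as at least are the count itself over this floor, without the interval of the count. Intervals are exact Poisson 95% intervals and, like this floor, cover counting error only, since reads amplified by PCR are not independent molecules.

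At Klf4, the placeable reads came from 1 region, 3720 to 3857 bp after the start and inside the gene. It held 80 H3K23ac reads (63.4 to 99.6), 47 H3K4me3 reads (34.5 to 62.5), 30 H3K14ac reads, 8 H3K27ac reads, 5 H3K18ac reads, 3 H4K8ac reads and 0 H2AK5ac and H3K9ac reads. H3K4me3 came to 31.8 CPM, at least 3.88-fold higher than IgG, and H3K23ac to 16.7 CPM, at least 2.03-fold higher. Neither list had a peak there, which the counting fixed in advance, since reads that touch the peak of another identifier were not counted. Per kb of unshared bases, the H3K23ac level of Klf4, 121 CPM, was reached by 0.0901% of the 13312 genes with placeable regions, and the H3K4me3 level, 231 CPM, by 0.864%.

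Klf10 had the most H3K9ac reads, 109 (89.5 to 131), or 66.9 CPM, at least 8.17-fold higher than IgG. They all lay in 1 region of 138 bp, 38301711 to 38301848, past the gene span and between the H3K9ac peaks that end at 38301592 and begin at 38302167. The same region had 38 H3K14ac reads, 21 H3K4me3 reads, 11 H3K18ac reads, 9 H3K27ac reads and 0 H2AK5ac reads. H3K9ac reads per kb as high as at Klf10, 162 CPM, were found at 0.240% of the 13312 genes. With a window of 1 kb in place of 2 kb this region is left out, and the H3K9ac CPM summed over the 9 genes falls to 5.53, against 72.5 in the wider window.

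Klf13 had 34 placeable regions with 2879 unshared bp, the most of the 9 genes. They held 660 H3K14ac reads (611 to 712), 211 H3K27ac reads (183 to 241), 119 H3K4me3 reads (98.6 to 142), 77 H3K18ac, 69 H4K8ac, 58 H2AK5ac, 42 H3K23ac and 9 H3K9ac reads, and 3 IgG reads. In CPM, H3K27ac was 10.2 times IgG (interval of the ratio 3.43 to 49.7) and H3K4me3 9.83 times (3.28 to 48.3). The intervals of H3K23ac, H2AK5ac and H3K9ac included 1. Reads under peaks of the other lists were not counted, so these ratios do not describe the marks at their own peaks. The 5770 bp of H3K9ac peaks and 5934 bp of H3K23ac peaks in this window are left out. H3K14ac is not set against IgG here, because all of these regions are H3K14ac peaks. The ratios rest on the scaling. With edgeR's TMM factors (trimmed mean of M-values, which rescale each library's total) they were 370 times for H3K27ac and 91.8 times for H3K4me3. Only the interval of H3K9ac then included 1 (0.680 to 15.7). The folds over the floor given in the text for Klf2, Klf4 and Klf10 became at least 14.4 to 36.3. Single places held most of the reads in several libraries. Of the 119 H3K4me3 reads, 107 came from the 89 unshared bp of the region 2034 to 2171 bp after the start, as did all 9 H3K9ac reads. These bases lie beside an H3K4me3 peak at 2137 to 2441 bp. Of the 58 H2AK5ac reads, 55 lay at 16385 to 16546 bp, of the 42 H3K23ac reads, 26 at 49198 to 49335 bp, and all 3 IgG reads at 37235 to 37372 bp.

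Fewer reads could be placed at the other 3 genes. Klf2 had 24 H3K4me3 reads (15.4 to 35.7), or 16.2 CPM and at least 1.98-fold higher than IgG, with 8 H3K14ac reads and 2 H3K27ac reads. Of the 24, 14 came from the 17 unshared bp of the peak over the start and 10 from a peak past the gene, 3638 to 3775 bp from the start. Klf3 had 96 H3K14ac reads (77.8 to 117) and 26 H4K8ac reads (17.0 to 38.1), the H4K8ac reads all at 10845 to 10982 bp after the start, and 0 H3K4me3 reads. Klf9 had 123 H3K14ac reads (102 to 147) and 23 H3K4me3 reads. The 23 came from the 68 unshared bp of the H3K14ac peak at 2385 to 2522 bp after the start, beside an H3K4me3 peak. Per kb, H3K14ac was 17.3 CPM at Klf3, 18.6 at Klf9, 18.8 at Klf10, 21.6 at Klf4, 22.8 at Klf13 and 5.14 at Klf2, against a median of 11.9 CPM over the 13312 genes.

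Beyond the windows, in the next 50 kb on each side, Klf2 had 17 H3K27ac peaks, Klf6 and Klf10 14 each, Klf3 12, Klf7 11, Klf9 10, Klf13 9, Klf4 7 and Klf1 6. The median over all genes was 6.00. Klf6 had the most regions of all 8 lists there, 3, in flanks that touch no other protein-coding gene. Klf4 and Klf10, whose flanks touch none either, had 0, as did Klf1, whose flanks touch 7. Klf2 had 1, and its flanks reach Eps15l1.

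The genes whose covered bases in the 8 lists were most like those of Klf2, among 7504 genes with a window of similar length, were Hyal2, a hyaluronidase gene, Pgam1, of glycolysis, and Cnbp, of a nucleic acid binding protein. Their distances, Euclidean over the 8 lists on log2(covered bases + 100), were 0.708, 0.756 and 0.766. Nearest to Klf4, among 9762 genes, were Lzts2 (0.286), Vim (0.363), the gene of vimentin, and Mknk2 (0.372), a kinase gene of the MAPK pathway. Each of these had H3K4me3 bases close to those of Klf4: 2621 bp at Lzts2, 2596 bp at Vim and 2767 bp at Mknk2, against 2758 bp at Klf4.

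Of 16 other Klf and Sp genes, 7 had all 8 lists, against 8 of the 9 genes described here. Klf12 had the most H3K27ac bases among these 7, 2388 bp in a window of 423711 bp, and Klf14 had 1 list, with 157 bp of H3K4me3. H2AK5ac was present at 7 of the 16 and H3K4me3 at 15. Genes upstream of Klf2 and Klf4 in the flow response (kinases, MEF2 factors, the CCM complex and Piezo1) had all 8 lists at 12 of 12. Mef2c, a MEF2 factor, had the most H3K27ac bases, 6118 bp, and Pdcd10, of the CCM complex, the fewest, 909 bp.

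Among 11 endothelial genes known to respond to Klf2 and Klf4, 9 had all 8 lists. Cav1, the gene of caveolin, led with 2275 bp of H3K27ac, and Sele, the gene of E-selectin, had the fewest lists, 5, with no H3K23ac, H3K4me3 or H3K9ac peak. Cofactors of the Klf proteins had all 8 lists at 6 of 9, with Ctbp2 highest (6260 bp of H3K27ac) while Ctbp1, Ep300 and Crebbp had 7 lists and no H2AK5ac peak. Windows differ in length between the genes of these comparison lists. The background for all 8 lists is the 44.6% given above over all genes. By window length it ran from 22.4% among genes with a window like that of Klf2 to 67.8% among those with one like that of Klf7.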

How the data were processed

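ACT-seq libraries of WT mouse lung endothelial cells were read from the deposited table of raw counts. Per the file headers, the authors counted reads with featureCounts 2.0.6 over a region file, without strand, each mate as 1 count, and discarded reads touching more than 1 identifier. Trim Galore, STAR, MACS2 and DESeq2 and the builds mm10 and GRCm38.p6 are named, without their roles, in the submitters' processing notes, and the regions are taken here as MACS2 peaks. How PCR duplicates were treated, the settings of STAR and MACS2, and whether IgG served in peak calling: not given in the sources used here.

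The 578465 identifiers hold 1309635 regions of 8 lists under shared numbers. Lists were separated by genome order and peak width, checked on simulated data, and named by their sizes. The library densest in each list was that of the mark so named. Genes and promoters came from RefSeq (GRCm38.p6), and 17492 genes had a start site. Exon positions were not used here. A peak counted in a window with at least 1 shared base. CPM used each library's table total. A fold against 0 IgG reads was set against a floor of 3 reads, and one against 3 IgG reads is given with its interval. Python 3.11.15, pandas 2.3.3, SciPy 1.17.1 and, for 1 alternative, edgeR 4.0.16 were used.

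The 9 genes, the comparison lists and markers were chosen with earlier results of these data known. All 9 genes were named; of each comparison list, the gene with the most and the fewest lists (ties by H3K27ac bases); and the 3 genes nearest to Klf2 and Klf4. Cdh5, Pecam1, Cldn5, Sftpc, Ep300 and Crebbp were named after their values were seen, and the bases on each side of the start and the motifs are descriptions added after seeing the data. The alternatives were other windows, wider peaks, order alone and other scalings of the reads.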

Additional observations from a re-analysis of the deposited data

How the results depend on the processing

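Peaks of all 8 lists were found at 8 of the 9 genes under each of the 5 alternatives run on the peaks. The 597 peaks became 554 with 1 kb either side and 513 in the gene span alone, 594 with at least 0.5 of the peak inside, and 370 with only peaks wider than the commonest width. Covered bases over all lists, 185720 bp, were 175525 bp with 1 kb either side, 138575 bp in the span alone and 152250 bp with wider peaks only. Separating the lists by genome order alone gave 597 peaks and 185720 bp. Unshared reads of the 8 marks summed to 618 CPM, against 1289 CPM with TMM factors, 660 CPM without mitochondrial and contig identifiers, 507 CPM with 1 kb either side and 611 CPM with identifiers of at least 10 reads only. TMM factors ran from 0.240 (H3K14ac) to 8.92 (IgG), so CPM ratios between libraries depend on the scaling. The same 6 genes were nearest to Klf2 and Klf4 with a pseudocount of 10. No paired analysis was possible because each antibody has 1 library. Depth limits the IgG comparison, whose 365999 reads left 3 at these genes.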
